A study of Mus musculus with 6 samples.

Results

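Respiratory complex I takes electrons from NADH, passes them through a flavin and a chain of iron-sulfur clusters to ubiquinone, and pumps protons across the inner mitochondrial membrane. Its core subunits carry the catalysis, its accessory subunits surround the core, and assembly factors build the complex and then leave it. Blood-forming stem cells are known for a low reliance on respiration, which rises as they differentiate. The genes described here are the rows of the expression tables whose symbol starts with Nduf, 45 of 21878 rows. They comprise 7 core subunits, 29 accessory subunits, 7 assembly factors (Ndufaf1 to Ndufaf7) and the pair Ndufa4 and Ndufa4l2, which carry the name although NDUFA4 is now assigned to complex IV. The core subunits encoded by mitochondrial DNA, and the accessory gene Ndufb1, are not analysed here. No row carried the mt- prefix of genes encoded by mitochondrial DNA. The 7 core subunits all belong to the peripheral arm of the complex, whereas the accessory subunits lie in both the peripheral and the membrane arm. Core and accessory classes therefore also differ in arm.

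RNA was sequenced from mouse bone marrow cells labelled LT-HSCs, the long-term stem cells of the blood, sorted by the gate Lin-c-Kit+Sca1+CD34-CD135-. The mice were WT, matched for background, and ate a control diet (CD, libraries CD1 to CD3) or a diet free of serine and glycine (SGFD, libraries SGFD1 to SGFD3) for 3 months. The labels used here give no strain, age or sex and do not say whether a library was 1 mouse or a pool. The p-values therefore speak only for the spread among these libraries, which may be technical. Levels are FPKM, fragments per kilobase of gene scaled to library size, and the comparison asks how they differ when both amino acids are missing from the food.

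Libraries held 18149541 to 19248337 fragments as recovered from the deposited values. Their FPKM values summed to 427715.6 to 433537.7 with CD and 464162.7 to 484983 with SGFD. Of 10618 genes tested with limma on log2(FPKM + 1), 59.4% passed an adjusted p of 0.05, 17.6% higher and 41.8% lower with SGFD, and the median log2 fold change was -0.13. Median-ratio scaling of the libraries moved that median to 0.01 (3162 genes higher, 2721 lower), and scaling to equal FPKM sums moved it to -0.27 (1032 higher, 6330 lower). Markers of several cell types differed between the diets in the same libraries. The 12 LT-HSC markers summed to 197 to 203 FPKM with CD and 108 to 114 with SGFD, and 8 of 11 tested were lower. Markers of neutrophils and their progenitors summed to 881 to 909 FPKM with CD and 3480.2 to 3863 with SGFD (10 of 10 tested higher), and monocyte markers to 212 to 221 and 371 to 398 (7 of 8 higher). Erythroid markers summed to 221 to 228 FPKM with CD and 102 to 107 with SGFD (4 of 5 tested lower). B cell markers summed to 27.7 to 37.1 and 25.5 to 26.4 FPKM (3 of 4 tested lower), most of it Cd79b (from 23.1 ± 2.96 to 24 ± 0.339 FPKM, mean ± SD of 3 libraries), while Igll1 went from 2.57 ± 0.415 to 0.256 ± 0.122 FPKM. Macrophage markers summed to 22.4 to 24.4 and 22.1 to 24.7 FPKM, with 4 of 5 tested lower and 1 higher: C1qa went from 1.85 ± 0.206 to 0.16 ± 0.112 FPKM and Cd68 from 13.9 ± 0.439 to 21.7 ± 1.29 FPKM. None of these markers was at 0 in every library. A different mix of cells and a different level of these genes' RNA within the sorted cells cannot be told apart here. The part of these markers in the results on complex I was not tested.

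Before rescaling or length correction, subunit genes of complex I were higher with SGFD, by a similar amount in the core and accessory classes. The Ndufaf assembly factors then passed in neither direction. Of 36 subunit genes 29 rose and none fell, against 17.6% of all tested genes higher and 41.8% lower. The median log2 fold change was 0.25 for the 7 core and 0.26 for the 29 accessory subunits, each 0.39 above that of all tested genes, and -0.05 for the 7 assembly factors. In 29 of the 36 subunits all SGFD values lay above all CD values, as they did in 19.6% of tested genes. The summed level of the 36 was 2577, 2602 and 2549 FPKM in CD1 to CD3 and 3139.7, 2963 and 3255 FPKM in SGFD1 to SGFD3, so every SGFD library stood above every CD library. The assembly factors together gave 87.8, 89.6 and 88.1 FPKM with CD and 88.6, 86.5 and 91.1 FPKM with SGFD, and the diets overlapped. Of the 36 subunits 36 were higher after median-ratio scaling, while 17 were higher and 1 lower after scaling to equal FPKM sums. Quantile normalization left 22 higher and 0 lower. The medians were then 0.15 (core), 0.16 (accessory) and 0.14 (Ndufaf), and 2 assembly factors were higher. Removing a trend on the length implied by the deposited values left 18 higher and 1 lower, and removing one on annotated transcript length 30 higher and 0 lower. With the implied length trend removed, 13 of the 29 accessory subunits were higher and 1 lower, with a median of 0.10. The median implied length was 659 bases for the accessory and 1669 bases for the core subunits.

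**Figure D1:**
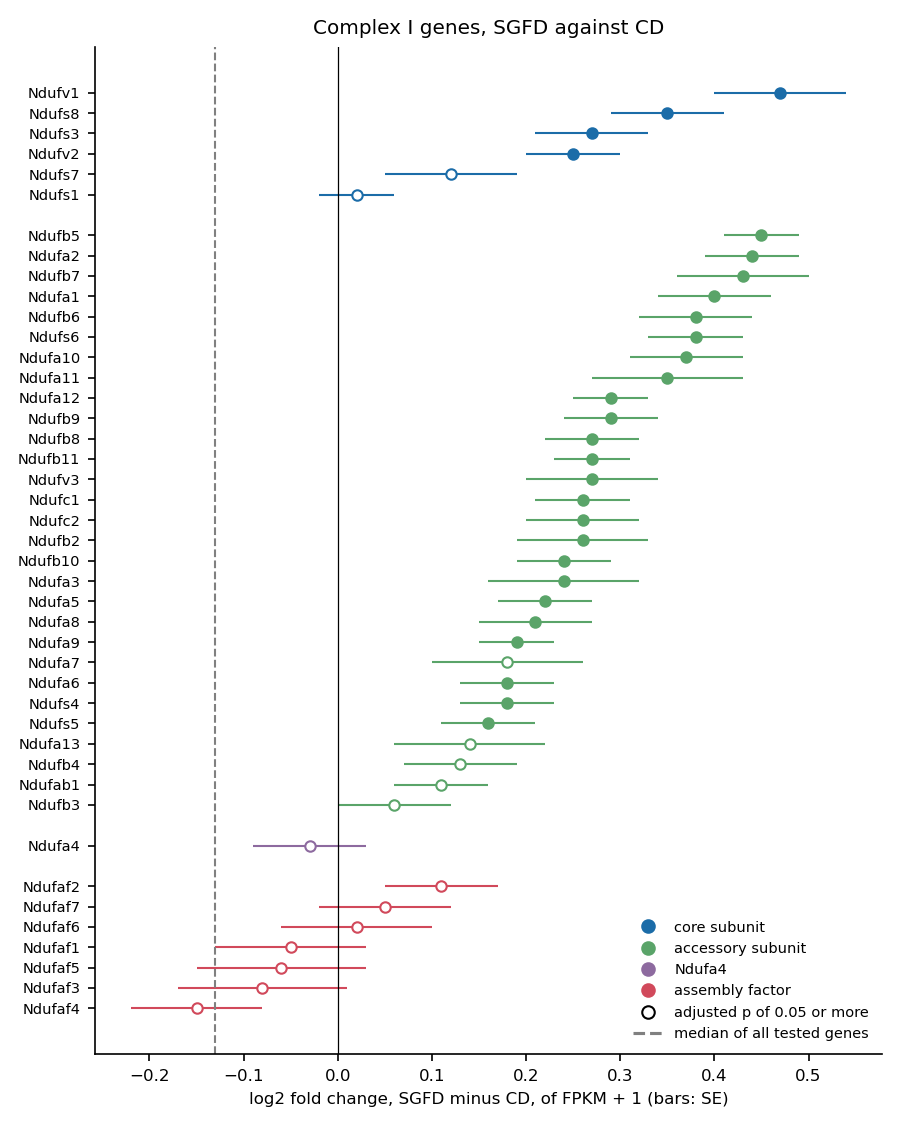
Fitted log2 fold change (SGFD minus CD, of FPKM + 1) of the genes with its SE; filled points passed an adjusted p of 0.05, and the dashed line marks the median of all tested genes, -0.13. The subunits drawn all lie at or above 0.02 and 7 of them are open, whereas the 7 assembly factors are open and lie between -0.15 and 0.11.

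Among the core subunits, those of the NADH-oxidising end gave both the highest and the lowest change. Ndufv1, which binds NADH and the flavin, had 74.5, 75.1 and 67.9 FPKM with CD and 105, 90.9 and 108 FPKM with SGFD. Every SGFD library exceeded every CD library, and the log2 fold change was 0.47 ± 0.07 (SE; limma, adjusted p = 0.000195). Its partner Ndufv2, an iron-sulfur subunit, went from 65.2, 70 and 71.3 FPKM to 84, 77.2 and 85.7 FPKM, again without overlap (log2 fold change of 0.25, limma adjusted p = 0.002). Ndufs1, which carries several iron-sulfur clusters of this end, had 37.3, 37.9 and 37.7 FPKM with CD and 37.6, 39.1 and 37.9 FPKM with SGFD. Its diets overlapped, with a log2 fold change of 0.02 ± 0.04 (SE; limma, adjusted p = 0.696). It was higher after median-ratio scaling (0.17, adjusted p = 0.00838) or with the trend on implied length removed (0.11, adjusted p = 0.0479), and lower after scaling to equal FPKM sums (-0.12, adjusted p = 0.0452).

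Nearer the ubiquinone site, Ndufs3 and Ndufs8 rose and Ndufs7 did not pass. Ndufs3 went from 57.6, 63.3 and 55.6 FPKM to 75.8, 65.8 and 71.4 FPKM, and SGFD2, its lowest SGFD library, lay just above the highest CD library (limma, adjusted p = 0.0042). Ndufs8, an iron-sulfur subunit, went from 61.6, 71.3 and 63.1 FPKM to 80, 85.6 and 84.4 FPKM, a log2 fold change of 0.35 ± 0.06 (SE; limma, adjusted p = 0.000545). Ndufs7, which carries the last cluster before ubiquinone, had 46.5, 48.8 and 41.3 FPKM with CD and 48.1, 46.7 and 54.4 FPKM with SGFD. Its groups overlapped and it did not pass (adjusted p = 0.154), but it did after median-ratio scaling (0.27, adjusted p = 0.0136). By mean CD level per length the order of these 6 genes was Ndufv1, Ndufv2, Ndufs8, Ndufs3, Ndufs7 and Ndufs1; the CD values of Ndufv1, Ndufv2 and Ndufs8 overlapped, as did those of Ndufs8 and Ndufs3. In RefSeq's GRCm38.p6 annotation Ndufv1 lies on chromosome 19 from 4007499 to 4012755 and Ndufs8 on the same chromosome from 3908863 to 3912774.

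**Figure D2:**
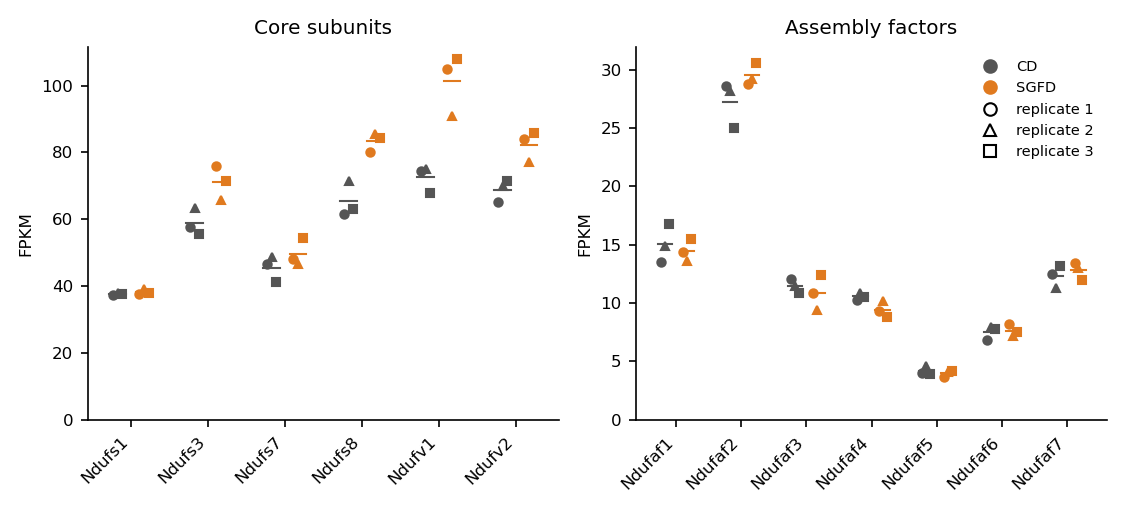
FPKM of 6 core subunits (left) and 7 assembly factors (right) in each library; grey marks CD, orange SGFD, the symbol the replicate number and the line the mean of 3. The SGFD values of Ndufv1 (90.9 to 108) lie above its CD values (67.9 to 75.1), whereas Ndufs1, Ndufs7 and 5 of the 7 assembly factors overlap between diets.

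The peripheral arm, which holds the redox chain, has 9 accessory subunits among these genes, and 8 of them rose. Ndufa2, a small thioredoxin-fold subunit, had 87.3, 88.4 and 81.7 FPKM with CD and 124, 109 and 119 FPKM with SGFD, a log2 fold change of 0.44 ± 0.05 (SE; limma, adjusted p = 9.03e-05). Ndufs6, a zinc-binding subunit that joins late in assembly, went from 94.4, 93.8 and 83.7 FPKM to 117, 115 and 123 FPKM (limma, adjusted p = 0.000194). Both stood clear of the CD range in every SGFD library. Ndufa12, a paralog of the assembly factor Ndufaf2, had 92.1, 93.7 and 93.7 FPKM with CD and 115, 113 and 114 FPKM with SGFD (adjusted p = 0.000114). Ndufv3, the accessory partner of Ndufv1 and Ndufv2, went from 27.3, 31.7 and 26.6 FPKM to 34.4, 33.1 and 35.7 FPKM (adjusted p = 0.0061). Neither of these 2 genes overlapped between diets. At the low end, Ndufa6 had 111, 115 and 106 FPKM with CD and 129, 120.2 and 126 FPKM with SGFD, a log2 fold change of 0.18 ± 0.05 (SE; limma, adjusted p = 0.00644). Ndufa7 had 95.8, 107 and 106 FPKM with CD and 104, 114 and 133 FPKM with SGFD; the groups overlapped and it did not pass (adjusted p = 0.0684). It passed without SGFD1 (0.0157), after median-ratio scaling (0.00801) and with the replicate number as a block (0.0273). Ndufa5, Ndufa9 and Ndufs4 also rose, by 0.22, 0.19 and 0.18 on the log2 scale.

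In the membrane arm, which pumps protons, 16 of 19 accessory subunits rose. Ndufb5 had 60.3, 58.7 and 56.6 FPKM with CD and 81, 78.1 and 81.4 FPKM with SGFD, a log2 fold change of 0.45 ± 0.04 (SE; limma, adjusted p = 2.02e-05). Ndufb7, which faces the intermembrane space, went from 111, 118 and 113 FPKM to 167, 136 and 159 FPKM (limma, adjusted p = 0.000429). Ndufa1, encoded on the X chromosome, went from 57.8, 52.5 and 60.4 FPKM to 75.5, 70.3 and 80.5 FPKM (adjusted p = 0.000405). In these 3 genes every SGFD library was above every CD library, and SGFD2 was the lowest of its group. Ndufb6 went from 62.2, 56.8 and 55.5 FPKM to 75.9, 70.4 and 81.8 FPKM. Ndufa10, a relative of nucleoside kinases, went from 84.1, 87.2 and 84.4 FPKM to 115, 100.3 and 116 FPKM. Ndufa11, the subunit gene with the lowest level per length, had 11.5, 11.8 and 11.5 FPKM with CD and 15.9, 13.1 and 16.4 FPKM with SGFD. These 3 genes did not overlap between diets either, with log2 fold changes of 0.38, 0.37 and 0.35 (limma, adjusted p = 0.000492, 0.000336 and 0.00378).

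The membrane subunits that did not pass were Ndufb3, Ndufb4 and Ndufa13. Ndufb3 had 56.8, 58.4 and 66.3 FPKM with CD and 60.6, 65 and 63.1 FPKM with SGFD, and CD3 was the highest of all 6 libraries (limma, adjusted p = 0.422). Ndufb4 had 62.2, 63.2 and 65.8 FPKM with CD and 64.7, 75.1 and 70.4 FPKM with SGFD (adjusted p = 0.0592), and passed without SGFD1 (0.0156). Ndufa13, also called GRIM-19, had 27.6, 25.6 and 28.6 FPKM with CD and 30.9, 26.6 and 33.5 FPKM with SGFD (adjusted p = 0.137), and passed without SGFD2 (0.0088). All 3 overlapped between diets, and all 3 were higher after median-ratio scaling (adjusted p = 0.014, 0.00167 and 0.0143). With the trend on implied length removed Ndufb3 was lower (-0.22, limma adjusted p = 0.0254). Ndufab1, the mitochondrial acyl carrier protein, sits in both arms and also serves fatty acid and lipoate synthesis. It had 49.4, 50.7 and 48 FPKM with CD and 50.9, 53.3 and 56.3 FPKM with SGFD, groups that lay close without overlapping (adjusted p = 0.0679), and passed without SGFD1 (0.04) and after median-ratio scaling (0.00239).

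The other 10 membrane subunits that rose were Ndufa3, Ndufa8, Ndufb2, Ndufb8, Ndufb9, Ndufb10, Ndufb11, Ndufc1, Ndufc2 and Ndufs5, with log2 fold changes from 0.16 (Ndufs5) to 0.29 (Ndufb9). Ndufa3, the subunit gene with the highest level per length, had 169, 158 and 176 FPKM with CD and 214, 169 and 213 FPKM with SGFD, so SGFD2 fell within the CD range (limma, adjusted p = 0.0269). Omitting a library raised its adjusted p past the threshold in 4 cases, CD1 (0.0635), CD2 (0.106), SGFD1 (0.115) and SGFD3 (0.0875). The call of Ndufa8 was lost without SGFD1 (0.0626) and that of Ndufs5 without CD1 (0.0577). Quantile normalization ended the calls of Ndufa3 (0.836), Ndufa6 (0.522), Ndufa8 (0.224), Ndufa9 (0.0944), Ndufb10 (0.258), Ndufb2 (0.0579) and Ndufs5 (0.0993), with adjusted p in parentheses. Scaling to equal FPKM sums ended those of Ndufa3 (0.272), Ndufa5 (0.222), Ndufa6 (0.426), Ndufa8 (0.281), Ndufa9 (0.27), Ndufb10 (0.0795), Ndufb2 (0.116), Ndufc1 (0.0599), Ndufs3 (0.0698), Ndufs4 (0.419), Ndufs5 (0.704) and Ndufv3 (0.0944). With the trend on implied length removed, the subunits no longer higher were Ndufa12 (0.13), Ndufa3 (0.649), Ndufa5 (0.982), Ndufa6 (0.481), Ndufa8 (0.589), Ndufb10 (0.441), Ndufb2 (0.741), Ndufb9 (0.0899), Ndufc1 (0.99), Ndufc2 (0.204), Ndufs3 (0.0752) and Ndufs5 (0.257).

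None of the 7 assembly factors passed in either direction (limma, adjusted p of 0.05), and none had an unadjusted p under 0.05; of all tested genes 59.4% passed, 17.6% higher and 41.8% lower. Ndufaf1, part of the mitochondrial complex I intermediate assembly (MCIA) complex that builds the membrane arm, had 13.5, 14.9 and 16.8 FPKM with CD and 14.4, 13.6 and 15.5 FPKM with SGFD. Ndufaf2 had 28.6, 28.2 and 25 FPKM with CD and 28.8, 29.2 and 30.6 FPKM with SGFD, the only 1 of the 7 whose SGFD values all lay above CD (log2 fold change of 0.11 ± 0.06 (SE; limma, adjusted p = 0.127)). Ndufaf3 and Ndufaf4 act together early in assembly. Ndufaf3 had 12.1, 11.5 and 10.9 FPKM with CD and 10.9, 9.38 and 12.4 FPKM with SGFD, which overlapped. Ndufaf4 had 10.3, 10.9 and 10.5 FPKM with CD and 9.3, 10.2 and 8.8 FPKM with SGFD, the only 1 of the 7 with every SGFD value below CD. Its log2 fold change was -0.15 ± 0.07 (SE; limma, adjusted p = 0.0866). It was lower without SGFD2 (-0.21, adjusted p = 0.0239), with array quality weights (-0.16, adjusted p = 0.018) and after scaling to equal FPKM sums (-0.30, adjusted p = 0.00901).

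The other 3 assembly factors overlapped between diets. Ndufaf5, which hydroxylates an arginine of Ndufs7, had 4.02, 4.58 and 3.93 FPKM with CD and 3.7, 4.07 and 4.15 FPKM with SGFD, the lowest level per length of the tested genes described here. Ndufaf7, a protein arginine methyltransferase, had 12.5, 11.3 and 13.2 FPKM with CD and 13.4, 13 and 12 FPKM with SGFD. Ndufaf6 had 6.81, 7.98 and 7.75 FPKM with CD and 8.17, 7.21 and 7.56 FPKM with SGFD. After median-ratio scaling 2 of the 7 were higher, Ndufaf2 (0.26, adjusted p = 0.00584) and Ndufaf7 (0.19, adjusted p = 0.0387), and after quantile normalization 2 were, Ndufaf6 (0.24, adjusted p = 0.0373) and Ndufaf7 (0.20, adjusted p = 0.039). Between 197 and 749 fragments per library stood behind each gene, against 408 to 2705 for the accessory subunits. The gene that RefSeq calls Ndufaf8 is listed as 1810043H04Rik, lies outside the 45 and was chosen after its values were seen. It had 21.6, 20.7 and 22.8 FPKM with CD and 28.7, 30.7 and 29.6 FPKM with SGFD, with a log2 fold change of 0.43 ± 0.05 (SE; limma, adjusted p = 0.000104), so this assembly factor rose.

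Ndufa4 had the highest level per length of the 45 genes and did not pass. It had 368, 361 and 326 FPKM with CD and 337, 325 and 370.5 FPKM with SGFD, and the groups overlapped (log2 fold change of -0.03 ± 0.06 (SE; limma, adjusted p = 0.663)). It was lower after quantile normalization (-0.30, adjusted p = 0.000156), after scaling to equal FPKM sums (-0.17, adjusted p = 0.00783) and with the trend on implied length removed (-0.26, adjusted p = 0.000787). Its hypoxia-induced paralog Ndufa4l2 was listed at 0 in all 6 libraries.

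Assembly factors without an Nduf name split in direction. Of 12 tested 3 rose and 3 fell, with a median of -0.06, against 17.6% and 41.8% of all tested genes. The 3 that fell are membrane proteins known to work with the MCIA complex. Tmem126b had 6.57, 7.98 and 8.79 FPKM with CD and 5.09, 4.9 and 5.67 FPKM with SGFD, a log2 fold change of -0.49 ± 0.10 (SE; limma, adjusted p = 0.00199), not passing after quantile normalization (0.0745). Tmem186 had 13.5, 13.7 and 13.3 FPKM with CD and 9.58, 9.59 and 10.4 FPKM with SGFD, not passing with the annotated length trend removed (0.0839). Timmdc1 had 14.5, 13.5 and 13.7 FPKM with CD and 11.7, 10.5 and 11.6 FPKM with SGFD, not passing after median-ratio scaling (0.105) or quantile normalization (0.151). In all 3 every SGFD library was below every CD library. Ecsit, also of the MCIA complex, rose from 16.1, 13.8 and 17.1 FPKM to 19.6, 17.9 and 18.9 FPKM (adjusted p = 0.0176), a call lost without CD2 (0.071) and SGFD1 (0.068) and after scaling to equal FPKM sums (0.225). Chchd4, which imports intermembrane space proteins, rose from 35.6 ± 1.56 to 43.6 ± 2.12 FPKM (SD, n = 3 each). Nubpl, which delivers iron-sulfur clusters to complex I, rose (adjusted p = 0.0381), a call that ended when any 1 of 5 libraries was omitted: CD1 (0.137), CD2 (0.0611), CD3 (0.073), SGFD1 (0.121) and SGFD3 (0.0855).

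Subunit genes of the other respiratory complexes rose as well. Of 39 genes of complexes II to V 38 rose and none fell, against 17.6% and 41.8% of all tested genes. Their median change was 0.36 on the log2 scale and that of complex I subunits 0.26. After quantile normalization the median of complexes II to V was 0.15, beside 0.15 (core) and 0.16 (accessory) for complex I. Calls then ended in each complex, among them Sdhc, Uqcrc2, Cox8a and Atp5j (limma, adjusted p = 0.0647, 0.441, 0.825 and 0.313). With the implied length trend removed the median of complexes II to V was 0.21. The difference between these lists was not tested. Before rescaling or length correction the medians were 0.25, 0.36, 0.40 and 0.35 for complexes II, III, IV and V. In complex II, Sdhd and Sdhb changed by 0.40 and 0.26. In complex III, Uqcrq rose from 36.2 ± 1.02 to 61.9 ± 1.81 FPKM (mean ± SD of 3 libraries) and Uqcrc1 by 0.36. In complex IV, Cox4i1 and Cox6c rose by 0.46 and 0.39, and in the ATP synthase, complex V, the ring subunits Atp5g3 and Atp5g1 by 0.45 and 0.58. Sdha, the flavoprotein of complex II, was the 1 of 39 that did not pass (from 144 ± 0.825 to 154 ± 7.63 FPKM; limma, adjusted p = 0.095), though it passed without SGFD2 (0.00882). SGFD2 was the lowest SGFD library for 23 of the 36 complex I subunits, for 32 of these 39 genes and for 31.9% of all tested genes. Its summed neutrophil and progenitor markers were 3480.2 FPKM, against 3694 in SGFD1 and 3863 in SGFD3. SGFD2 also had the lowest FPKM sum of the SGFD libraries (464162.7, against 474955.3 in SGFD1 and 484983 in SGFD3) and the most recovered fragments (19248337). The part of the markers, of the FPKM sum and of depth in this was not tested.

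**Figure D3:**
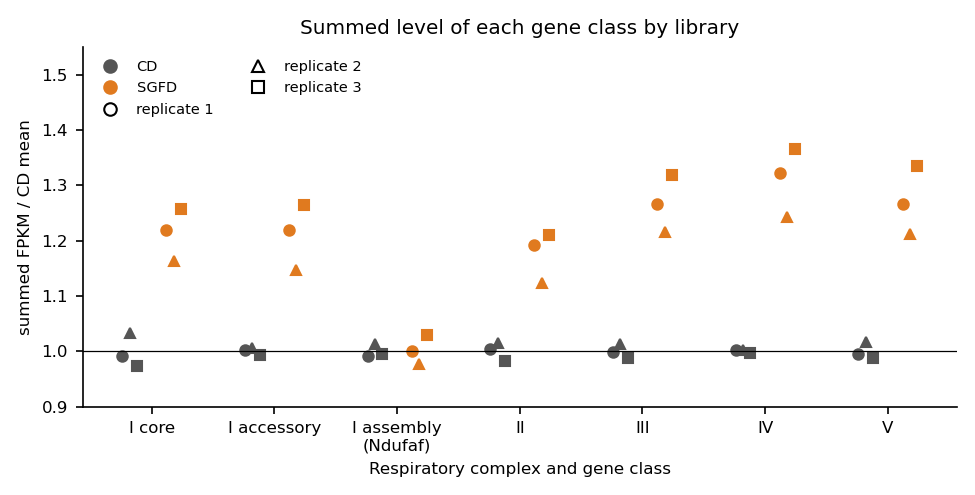
Summed FPKM of each gene class in each library, divided by the mean of its 3 CD libraries; the axis starts at 0.9, grey marks CD, orange SGFD and the symbol the replicate number. In each subunit class all SGFD libraries lie above all CD libraries with SGFD2 lowest, and the Ndufaf assembly factors lie around 1 on both diets.

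Other lists hold genes that supply complex I with clusters, imported proteins and electrons, and their counts stand against 17.6% of all tested genes higher and 41.8% lower. Of 15 genes of iron-sulfur cluster assembly 4 rose and 1 fell (median 0.06). The glutaredoxin Glrx5 rose from 56.8 ± 3.31 to 74.5 ± 5.39 FPKM and the chaperone Hspa9 from 192 ± 3.69 to 221 ± 5.16 FPKM (SD, n = 3 each), but Hspa9 turned to -0.07 after quantile normalization (adjusted p = 0.09). Isca2 fell from 19 ± 0.939 to 15.8 ± 1.73 FPKM, a call lost without CD1 (0.0718), after median-ratio scaling (0.242) and after quantile normalization (0.155). Of 19 genes of the outer membrane and protein import 14 rose and none fell (median 0.26); the chaperone Timm13 rose from 45.6 ± 1.85 to 70.8 ± 6.47 FPKM and the channel gene Vdac2 from 116 ± 3.82 to 149.7 ± 3.94 FPKM. Of 22 genes of other NADH and ubiquinone reactions 8 rose and 4 fell (median 0.08). Mdh2 and Pdha1, whose enzymes make NADH in the matrix, rose by 0.36 and 0.30 on the log2 scale. Gpd2, which feeds electrons to ubiquinone without complex I, fell from 15.1 ± 0.23 to 12.2 ± 0.663 FPKM, and Coq2, of ubiquinone synthesis, from 43.9 ± 1.31 to 35.8 ± 3.66 FPKM. Neither passed after median-ratio scaling (limma, adjusted p = 0.0639 and 0.0861). Gpd2 also did not pass after quantile normalization (0.0733) or with the annotated (0.151) or implied (-0.01, adjusted p = 0.856) length trend removed.

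The regulators of respiratory genes and the mitochondrial DNA machinery form short lists, and a few genes set their counts. Of 11 tested transcription factors and coactivators 0 rose and 6 fell (median -0.26), against 17.6% and 41.8% of all tested genes. The median implied length of this list was 5392 bases. All tested genes of 4914 to 5432 bases had a median of -0.22, and those of 5432 to 6028 bases -0.28. With the trend on implied length removed, 2 of the regulators were higher and 1 lower. Gabpb2, a subunit of the ETS factor GABP, fell from 18.1 ± 0.64 to 13.7 ± 1.28 FPKM and Pprc1, a coactivator of the PGC-1 family, from 15.2 ± 1.21 to 11.2 ± 1.23 FPKM (SD, n = 3 each). With the trend on implied length removed neither passed (adjusted p = 0.831 and 0.197). Nuclear respiratory factor 1 (Nrf1), with a change of -0.16 that did not pass (adjusted p = 0.0775), was then higher (0.25, adjusted p = 0.0209). Of 12 tested genes listed for mitochondrial DNA and its transcription 1 rose and 5 fell (median -0.16), close to the same shares of all tested genes. The polymerase gene Polg fell from 13.4 ± 0.836 to 10.1 ± 0.611 FPKM, not passing with the implied length trend removed (0.108), and Tfb1m fell from 11.5 ± 0.851 to 8.91 ± 1.09 FPKM, not passing after median-ratio scaling (0.0789). Top1mt was the 1 that rose (adjusted p = 0.0205), a call lost without CD1 (0.0923), CD3 (0.0564) and SGFD1 (0.0637).

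Complex I subunit genes have short implied lengths, and genes of short implied length as a whole were higher with SGFD in these libraries. This length was read from the deposited values, as recovered fragments over FPKM, and is not the span of the gene in the genome. Its median was 737 bases for the 36 subunits, 1671 for the assembly factors and 3463 for all tested genes. The 13 subunits under 600 bases had a median log2 fold change of 0.24, and so did all 177 tested genes of that length, with 76.9% and 52.5% called higher. From 1200 to 2000 bases all 8 subunits were higher (median 0.26), against 32.3% of 1513 genes (median 0.06). The 7 assembly factors had no call in any length range. The part of length in the rise of the subunits was otherwise not tested.

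**Figure D4:**
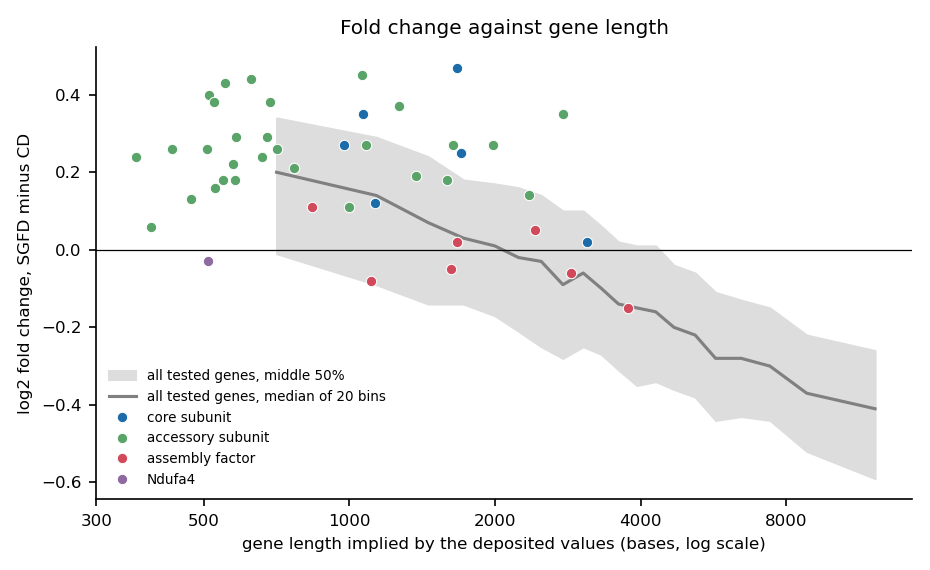
Log2 fold change (SGFD minus CD) against gene length implied by the deposited values, in bases on a log axis; points are complex I genes by class, and the grey line and band give the median and the middle 50% of all tested genes in 20 bins. The line falls from 0.20 in the bin of shortest implied length to -0.41 in that of the longest. Ndufv1 (0.47 at 1669 bases) lies above the band and Ndufaf4 (-0.15 at 3769 bases) within it.

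Because many subunits rose together, start-site windows from RefSeq (GRCm38.p6, 300 bases) were searched on both strands for letters bound by factors known to drive respiratory genes. A composite site of C/EBP and ATF factors, not picked as such a driver, was searched as well. Windows were found for 39 of the 45 genes, 32 subunits and 6 assembly factors among them. The letters were GCGCATG for the core of the NRF1 site, CCGGAAG for the ETS site of GABP, GATGGCG for YY1, GGGCGG for the GC box and TGATGNAA for a composite site of C/EBP and ATF factors. Shares are of genes with the letters in any of their windows, and the 27025 genes compared were not limited to those tested. NRF1 letters were in 15.6% of the subunits (5 of 32) and 4.41% of all 27025 genes. ETS letters were in 12.5% (4 of 32) and 9.93%, YY1 letters in 18.8% (6 of 32) and 4.04%, and GC boxes in 46.9% (15 of 32) and 38.2%. The differences between these shares were not tested. The C/EBP-ATF letters were in 4.51% of all these genes and in none of the subunit or assembly factor windows. NRF1 letters were also in 2 of 6 assembly factor windows, those of Ndufaf4 and Ndufaf5, which did not pass. The windows of Ndufv1 and Ndufb5, the core and the accessory gene with the highest fold change, held none of these letters.

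Windows are shown for a core gene with an ETS match (Ndufs8), a peripheral arm gene with a YY1 match (Ndufs6), a membrane arm gene with NRF1, ETS and GC box matches (Ndufb6) and, as a gene that did not rise, Ndufaf4 with NRF1 matches that overlap on opposite strands and overlapping GC boxes. They lie at chr19:3912725-3913024 (minus strand), chr13:73328433-73328732 (minus), chr4:40279372-40279671 (minus) and chr4:24897833-24898132 (plus), and run 5′ to 3′ with the matches on either strand in capitals.
Ndufs8: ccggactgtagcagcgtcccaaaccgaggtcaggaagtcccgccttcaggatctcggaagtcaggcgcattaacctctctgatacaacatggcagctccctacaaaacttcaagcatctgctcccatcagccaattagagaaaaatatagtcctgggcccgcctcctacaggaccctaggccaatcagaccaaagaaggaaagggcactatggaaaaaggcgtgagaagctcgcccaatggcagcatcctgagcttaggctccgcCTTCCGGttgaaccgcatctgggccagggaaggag
Ndufs6: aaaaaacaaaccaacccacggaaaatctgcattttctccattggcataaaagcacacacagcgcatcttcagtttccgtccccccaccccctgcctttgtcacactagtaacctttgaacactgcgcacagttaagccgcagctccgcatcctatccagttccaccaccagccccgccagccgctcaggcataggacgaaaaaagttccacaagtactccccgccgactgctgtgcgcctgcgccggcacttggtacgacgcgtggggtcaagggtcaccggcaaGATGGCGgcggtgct
Ndufb6: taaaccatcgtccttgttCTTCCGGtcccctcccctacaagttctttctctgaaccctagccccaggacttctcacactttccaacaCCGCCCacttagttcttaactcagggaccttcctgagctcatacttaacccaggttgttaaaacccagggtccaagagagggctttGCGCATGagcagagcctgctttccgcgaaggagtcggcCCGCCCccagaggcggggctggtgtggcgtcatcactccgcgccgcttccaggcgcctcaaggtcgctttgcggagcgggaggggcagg
Ndufaf4: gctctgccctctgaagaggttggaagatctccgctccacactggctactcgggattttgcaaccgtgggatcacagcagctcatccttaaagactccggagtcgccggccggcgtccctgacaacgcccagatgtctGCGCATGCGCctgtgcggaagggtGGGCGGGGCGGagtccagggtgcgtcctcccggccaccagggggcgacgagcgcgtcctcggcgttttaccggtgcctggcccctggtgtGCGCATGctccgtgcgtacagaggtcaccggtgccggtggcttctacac
Log2 fold changes with SGFD were 0.35 for Ndufs8, 0.38 for Ndufs6, 0.38 for Ndufb6 and -0.15 for Ndufaf4. A match describes letters in the window, and binding was not tested.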

How the data were processed

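The deposited data were 6 tables, 3 per diet, of 21878 gene symbols each. An RNeasy Micro kit and a stranded TruSeq mRNA kit were used, per the labels' protocols, and fastp, HISAT2, StringTie, GRCm38 and mm10 appear in the submitters' processing notes without roles or versions. The authors deposited FPKM values, normalized to gene length and library size; the unit was inferred from the values, 99.96% of 15505 genes above 0 giving whole fragments (tolerance 0.02) against 1 of 300 perturbed genes. Recovered fragments gave depth and length and entered no test. Rows with repeated names (4) were left out.

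Log2(FPKM + 1) was tested with limma 3.58.1 in R 4.3.3 (trend, robust, two-sided) on 10618 genes with 1 FPKM or more in 3 or more libraries, with Benjamini-Hochberg adjustment over all of them, after tests on simulated data. The scale understates changes of low genes. The filter passed 44 of the 45 genes. All 45 are counted. The values of 2 genes are not reported here. Values in all libraries are given for the other core subunits, assembly factors, genes that did not pass and the accessory subunits at the ends of each arm; from other lists, the 2 genes with the smallest p in each direction, and any further gene was chosen after its values were seen. Members, lists and length bins were chosen with earlier results of these data known. Alternatives were other filters, pseudocounts, scalings, weights, thresholds and length corrections, a replicate block, and leaving out each library. How reads shared with processed gene copies were treated is not given in the sources used here.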

Additional observations from a re-analysis of the deposited data

How the results depend on the processing

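Without the filter or with one of 5 FPKM, with pseudocounts of 0.1 or 0.01, without trend, at a threshold of 0.01 or with any library left out, 25 to 30 of the 36 subunits rose and none fell. Counts or medians past 1.5 times, or past the spread, of those reported follow by setting; the cause was not tested. Without the filter, genes lower numbered 3 (mitochondrial DNA). With median-ratio scaling, genes higher numbered 2 (Ndufaf), 5 (other assembly factors), 9 (iron-sulfur), 2 (regulators) and 3 (mitochondrial DNA); genes lower numbered 0 (iron-sulfur), 3 (regulators), 1 (mitochondrial DNA) and 1 (NADH and ubiquinone); medians were 0.41 (core), 0.41 (accessory), 0.09 (Ndufaf) and 0.52 (complexes II to V). With quantile normalization, genes higher numbered 2 (Ndufaf), 1 (regulators) and 2 (mitochondrial DNA); genes lower numbered 1 (other assembly factors), 0 (iron-sulfur), 2 (regulators), 1 (mitochondrial DNA), 1 (import) and 2 (NADH and ubiquinone); medians were 0.15 (core), 0.16 (accessory), 0.14 (Ndufaf) and 0.15 (complexes II to V), and the sign changed to -0.02 for Uqcrh, -0.04 for Atp5a1, -0.04 for Atp5g2, -0.07 for Hspa9 and -0.14 for Vdac3. With scaling to equal FPKM sums, genes higher numbered 13 (accessory), 7 (peripheral arm), 10 (membrane arm), 17 (all subunits), 1 (other assembly factors), 1 (iron-sulfur), 0 (mitochondrial DNA), 8 (import) and 4 (NADH and ubiquinone); genes lower numbered 1 (core), 1 (Ndufaf), 1 (peripheral arm), 1 (all subunits), 7 (other assembly factors), 3 (iron-sulfur), 9 (mitochondrial DNA), 2 (import) and 8 (NADH and ubiquinone); medians were 0.11 (core), 0.12 (accessory), -0.19 (Ndufaf) and 0.22 (complexes II to V), and the sign changed to -0.12 for Ndufs1 and -0.14 for Vdac3. With the annotated length trend removed, genes higher numbered 5 (other assembly factors), 1 (regulators) and 2 (mitochondrial DNA); genes lower numbered 0 (iron-sulfur), 2 (regulators), 2 (mitochondrial DNA) and 2 (NADH and ubiquinone); medians were 0.04 (Ndufaf), and the sign changed to 0.08 for Nnt. With array quality weights, genes higher numbered 1 (regulators) and 2 (mitochondrial DNA); genes lower numbered 1 (Ndufaf), 5 (other assembly factors) and 1 (import). With the replicate number as a block, genes lower numbered 1 (import). At a threshold of 0.01, genes higher numbered 1 (other assembly factors) and 0 (mitochondrial DNA); genes lower numbered 0 (iron-sulfur) and 3 (mitochondrial DNA). With the implied length trend removed, an alternative chosen after seeing the data, genes higher numbered 13 (accessory), 8 (membrane arm), 18 (all subunits), 2 (regulators) and 3 (mitochondrial DNA); genes lower numbered 1 (accessory), 1 (membrane arm), 1 (all subunits), 5 (other assembly factors), 1 (regulators) and 1 (import); medians were 0.10 (accessory) and 0.21 (complexes II to V), and the sign changed to -0.05 for Ndufa3, -0.04 for Ndufa6, -0.22 for Ndufb3, -0.07 for Ndufs5, -0.00492 for Uqcrb, 0.25 for Nrf1, 0.19 for Gabpa, 0.03 for Gabpb1, 0.16 for Lrpprc and -0.00198 for Timm17a. With each library left out in turn, values ranged over 0 to 1 (Ndufaf, lower), -0.08 to 0.03 (Ndufaf, median), 0.32 to 0.39 (complexes II to V, median), 1 to 3 (other assembly factors, higher), 0 to 1 (iron-sulfur, lower), 0 to 1 (regulators, higher), 0 to 2 (mitochondrial DNA, higher), 3 to 5 (mitochondrial DNA, lower), 0 to 1 (import, lower). Deviations of same-numbered libraries from their diet's mean had correlations across genes of -0.0068, -0.227 and -0.133. Those of differently numbered pairs ran from -0.0948 to 0.216. Deviations from a mean of 3 libraries are tied to each other, so these correlations cannot tell whether same-numbered libraries were handled together. With the replicate block 30 in place of 29 subunits rose.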
